A study of Mus musculus with 9 samples.

Results

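The comparison described here set N1E-115 cells labelled as overexpressing Tcof1 against wildtype N1E-115 cells. N1E-115 is a mouse neuroblastoma line with features of sympathetic neurons. Tcof1 encodes treacle, a protein of the nucleolus that works with RNA polymerase I and the box C/D snoRNP proteins in making ribosomal RNA, and heterozygous loss of it causes Treacher Collins syndrome in people. The members were chosen by array title, 3 overexpressing arrays (A, B and C) and 3 wildtype arrays (A, B and C), which makes 6 of the 9 arrays in all. The other 3 arrays came from cells labelled as Tcof1 knockdown; they entered the shared estimate of spread and are given only as values beside these. Every array carried total RNA of the same line. The labels do not say how Tcof1 was raised, whether the overexpressing cells are 1 clone or a pool, or whether a letter is a separate culture, so the p-values cover the spread of these arrays alone, and that spread may be technical.

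Treacle sits upstream of a chain that is well known from other systems. RNA polymerase I transcribes the ribosomal RNA precursor in the nucleolus, snoRNPs guide its methylation and pseudouridylation, and a large set of assembly factors cuts and folds it into subunits. Ribosome production and cell division are linked in growing cells, and the genes of G1, S phase and mitosis are switched on in waves by E2F factors and by the MuvB and B-Myb complex. N1E-115 cells divide when kept growing and put out neurites when they stop, so neuronal genes were described as well.

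Intensities are the deposited linear values, in arbitrary units scaled to a common level, and a level of one probe set cannot be set against that of another. Where 3 intensities are given for a group they stand for arrays A, B and C in that order. Fold changes are log2(intensity + 16) differences, overexpressing minus wildtype, ± SE from limma, and adjusted p-values are Benjamini-Hochberg over all 22626 probe sets tested. A gene was called when its adjusted p was under 0.05, and within lists the probe set with the highest mean stood for its gene. Other probe sets of such a gene were not always called, and how many were is given for some genes only. Array medians ran from 164.75 to 177.55 in the overexpressing and from 169.7 to 176.65 in the wildtype arrays. Correlations of log2 values were 0.976 to 0.978 within the overexpressing group, 0.973 to 0.978 within wildtype and 0.956 to 0.973 between these groups. The ratio of 3′ to 5′ actin control signal, a sign of RNA integrity, was 0.99 to 1.02 in the overexpressing and 0.91 to 1.03 in the wildtype arrays.

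The overexpressing cells had more Tcof1 signal on 1 of its 3 probe sets. The probe set ending in _a_at read 385.5, 232.4 and 263.6 in the overexpressing and 143.1, 156.3 and 149.8 in the wildtype arrays, a log2 fold change of 0.87 ± 0.21 (adjusted p = 0.0241). The groups did not overlap, and overexpressing array A stood above the other two. The probe set ending in _s_at, an ending given to probe sets shared by related transcripts, read 229.5, 276.6 and 284.0 against 163.3, 131.8 and 204.3, a difference of 0.63 ± 0.20 that was not called (adjusted p = 0.0786). The probe set ending in _at read 274.2, 268.6 and 292.8 against 167.8, 232.6 and 232.2, a difference of 0.39 ± 0.17 (adjusted p = 0.187). On all 3 probe sets the lowest overexpressing array lay above the highest wildtype array. Groups that did not overlap, in either direction, were found at 27.8% of all probe sets. The call on the first probe set was lost without overexpressing array A (0.67, adjusted p = 0.0973) or C (0.93, adjusted p = 0.0511) and without wildtype array A (0.84, adjusted p = 0.0728) or B (0.90, adjusted p = 0.0688). The second probe set passed without wildtype array C (0.77, adjusted p = 0.047).

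**Figure D1:**
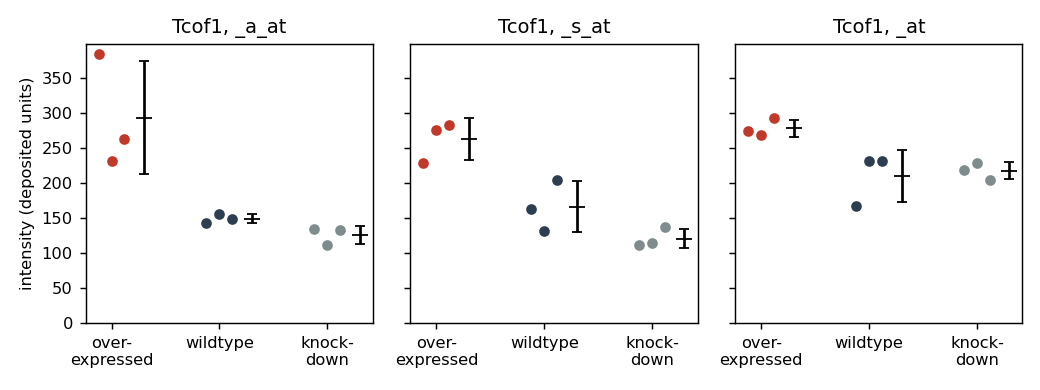
Deposited intensity (y axis, from 0) of the 3 Tcof1 probe sets in each array, by group; points are arrays A, B and C, and the bar beside them is the mean with its SD over 3 arrays. The overexpressing arrays sit above the wildtype arrays on each probe set, most clearly on the one ending in _a_at (232.4 to 385.5 against 143.1 to 156.3).

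Over the whole array, 2169 of 22626 probe sets (9.59%) were called, 1022 higher (4.52%) and 1147 lower (5.07%) in the overexpressing cells. An unadjusted p under 0.05 was found for 5209 probe sets. Of the calls, 243 higher and 309 lower passed a 2-fold change. The 3 overexpressing arrays did not overlap the 3 wildtype arrays at 27.8% of all probe sets. Among 12393 genes read by their brightest probe set, 624 (5.04%) were higher and 770 (6.21%) lower, and the median log2 fold change of all genes was -0.027. Where a gene had several probe sets the calls ran one way: 285 genes had at least 2 probe sets called in the same direction and 0 had calls in both. The loss of 1 array changed the number of calls: 1197, 1288 and 1534 were left without overexpressing array A, B or C, and 1347, 1090 and 2404 without wildtype array A, B or C. None of the probe sets called with all arrays changed sign in these fits.

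**Figure D2:**
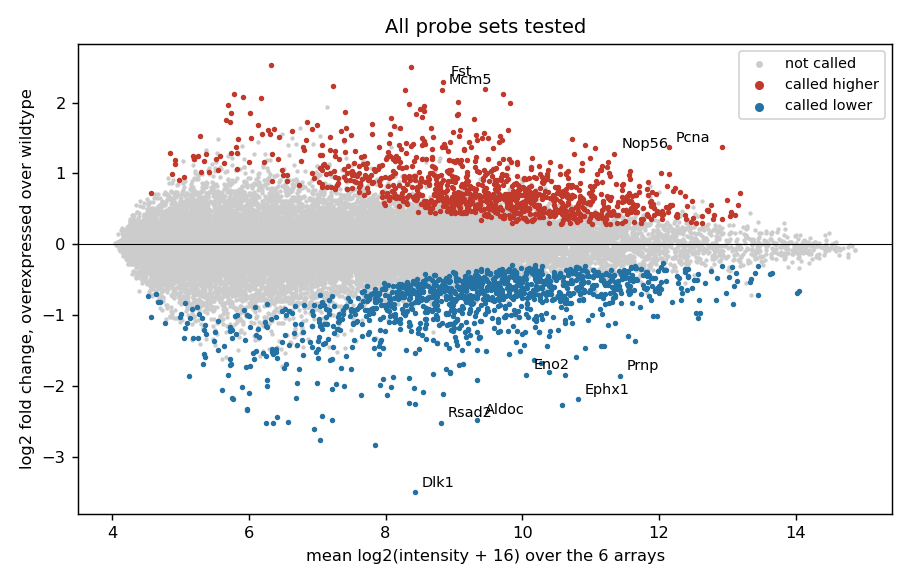
Each point is 1 of the 22626 probe sets, placed by its mean log2(intensity + 16) over the 6 arrays (x axis) and its log2 fold change, overexpressing over wildtype (y axis); red is called higher, blue called lower and grey not called. Dlk1 lies lowest among the labelled genes at -3.51, and Fst and Mcm5 lie near the top at 2.30 and 2.18.

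Called genes among the nucleolar proteins that handle ribosomal RNA were higher, while the protein parts of the ribosome itself held a single call on their brightest probe sets. The box C/D and H/ACA snoRNPs are the particles that place methyl groups and pseudouridines on ribosomal RNA. Of 13 measured genes of their proteins and assembly factors, 8 were called higher and 0 lower, against 5.04% of all genes called higher. The median log2 fold change was 0.45, and the assembly factors Ruvbl1 (0.33 ± 0.09) and Ruvbl2 (0.55 ± 0.13) were among the 8. Leaving out overexpressing array A, B or C gave 7, 5 and 5 genes higher, and leaving out wildtype array A, B or C gave 5, 7 and 8. Nop56, a core box C/D protein reported to bind treacle, read 4312, 3758 and 4099 in the overexpressing and 1554, 1594 and 1838 in the wildtype arrays (log2 fold change 1.28 ± 0.11, adjusted p = 0.000206). Its partner Nop58 read 1885, 2726 and 2435 against 1261, 1276 and 1421 (log2 fold change 0.81 ± 0.12, adjusted p = 0.003). Overexpressing array A was the lowest of its group for Nop58, yet above each wildtype array. Rrp9, which binds the U3 snoRNA needed for the first cuts of the precursor, showed a larger difference at 806.6, 571.7 and 715.8 against 125.8, 159.0 and 251.2 (log2 fold change 1.91 ± 0.33, adjusted p = 0.0051). Nhp2 and Nop10, structural proteins of the H/ACA particle, differed by 0.69 ± 0.13 and 0.49 ± 0.09. Fibrillarin, the box C/D methyltransferase encoded by Fbl, differed by 0.45 ± 0.10 (adjusted p = 0.0168). Leaving out any 1 array left the calls of Nop56, Nop58, Rrp9, Nhp2 and Nop10 in place, while fewer of the 6 fits without 1 array held those of Fbl (3 of 6).

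Of 18 measured genes of RNA polymerase I transcription, 3 were called higher and 0 lower (median 0.29). Nolc1, a treacle-like phosphoprotein of the nucleolus, read 1413, 1245 and 1515 against 788.9, 899.6 and 994.2 (log2 fold change 0.63 ± 0.12, adjusted p = 0.00871). This was 1 of its 3 probe sets and the only one called. The groups did not overlap on it, which held for 27.8% of all probe sets. Polr1b, the second largest subunit of the polymerase, differed by 0.53 ± 0.12 and the RNA helicase Ddx21 by 0.48 ± 0.13, both called. Ubtf, the upstream binding factor that treacle is known to contact, differed by 0.41 ± 0.13 and was not called (adjusted p = 0.0693), and the termination factor Ttf1 differed by -0.79 ± 0.38 (adjusted p = 0.249). Removal of any single array left the calls of Nolc1 in place, while fewer of the 6 fits without 1 array held those of Polr1b (2 of 6) and Ddx21 (1 of 6).

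Among 83 measured factors that cut, fold and export the pre-ribosome, 25 were higher and 0 lower, with a median of 0.30, and 67 of the 83 lay above 0. That number higher became 13, 13 and 14 without overexpressing array A, B or C, and 13, 11 and 21 without wildtype array A, B or C. Tsr1, a factor of the small subunit, read 744.0, 751.4 and 824.5 in the overexpressing and 378.3, 424.8 and 439.3 in the wildtype arrays (log2 fold change 0.88 ± 0.11, adjusted p = 0.00116). Rpf2, which helps to bring the 5S RNA into the large subunit, read 1196, 1335 and 1000.1 against 526.5, 695.9 and 664.0 (log2 fold change 0.89 ± 0.13, adjusted p = 0.00266). Both genes had their 3 highest readings in the overexpressing arrays, and 27.8% of all probe sets had groups without overlap in either direction. The differences of the small-subunit kinase Riok2 (0.75 ± 0.15) and of Mphosph10 (0.58 ± 0.09) were called as well. So were those of the large-subunit factors Nip7 (0.61 ± 0.10), Mak16 (0.56 ± 0.09) and Ddx18 (0.50 ± 0.09). The RNA exosome, which trims precursor ends, and its cofactors had 4 of 12 measured genes higher and 0 lower, the cofactor Mtrex among the 4. Exosc2 led at 1726, 1773 and 1899 against 854.4, 946.9 and 1036 (log2 fold change 0.92 ± 0.10, adjusted p = 0.000523). Omitting any 1 array left the calls of Tsr1, Rpf2, Riok2, Mphosph10, Nip7, Mak16, Ddx18 and Exosc2 in place.

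The E-box CACGTG, the letters read by Myc and Max, was searched on both strands in RefSeq promoter windows (GRCm38.p6, 250 bases before to 50 after each start), which matched 9882 of the 12393 genes. It lay in the window of 19 of 70 pre-ribosome assembly genes with a window (27.1%), 10 of them among the 23 called, and in 0 of 10 snoRNP genes. Over all genes with a window the share was 10.8%. Such a match describes the sequence only and is no evidence of binding. The stretches before the start of 2 called genes, Nop2 (an rRNA methyltransferase) and Rpf2, show the letters in capitals:
Nop2, chr6:125131809-125131842, plus strand: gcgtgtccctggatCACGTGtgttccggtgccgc
Rpf2, chr10:40246986-40247019, minus strand: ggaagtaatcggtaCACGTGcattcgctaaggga

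Of 42 measured cytosolic ribosomal proteins, 0 were called higher and 1 lower, Rps25 (log2 fold change -0.29 ± 0.08, adjusted p = 0.0401), and the list's median was -0.04. Beyond the brightest probe sets, 1 of 3 was called higher for Rpl37a and 1 of 2 lower for Rpl22. The list's median relative to the wildtype mean was -0.07, -0.01 and -0.01 in the overexpressing arrays and 0.10, 0.00 and -0.11 in the wildtype arrays. RNA polymerase III, which makes 5S RNA and transfer RNAs, had 6 of 18 measured genes higher (median 0.39) and 1 lower. Genes called higher numbered 0, 3 and 3 when overexpressing array A, B or C was left out and 5, 2 and 5 when wildtype array A, B or C was. Ssb, the La protein that shields new polymerase III transcripts, was higher at 2229, 1812 and 1951 against 1360.5, 1408 and 1436 (log2 fold change 0.50 ± 0.11, adjusted p = 0.015), and 3 of its 4 probe sets were called. The gene that was lower was Maf1, the repressor of polymerase III, at 2308, 2225 and 2585 against 3476, 3557 and 3026 (log2 fold change -0.50 ± 0.12, adjusted p = 0.0261). Of 21 cytosolic aminoacyl-tRNA synthetase genes, 3 were higher and 1, Sars, lower (-0.49 ± 0.09), around a median of 0.02. The shares over all genes were 5.04% higher and 6.21% lower. Mitochondrial ribosomal proteins had 13 of 70 higher and 2 lower (median 0.13). With overexpressing array A, B or C left out 5, 7 and 9 were higher, and with wildtype array A, B or C left out 8, 7 and 12. Mrps25 (1.19 ± 0.17) and Mrpl18 (0.85 ± 0.13) were the highest of them and Mrpl24 (-0.93 ± 0.15) the lowest. Taking out any 1 array left the calls of Sars, Mrps25, Mrpl18 and Mrpl24 in place, while fewer of the 6 fits without 1 array held those of Rps25 (0 of 6), Ssb (4 of 6) and Maf1 (2 of 6).

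**Figure D3:**
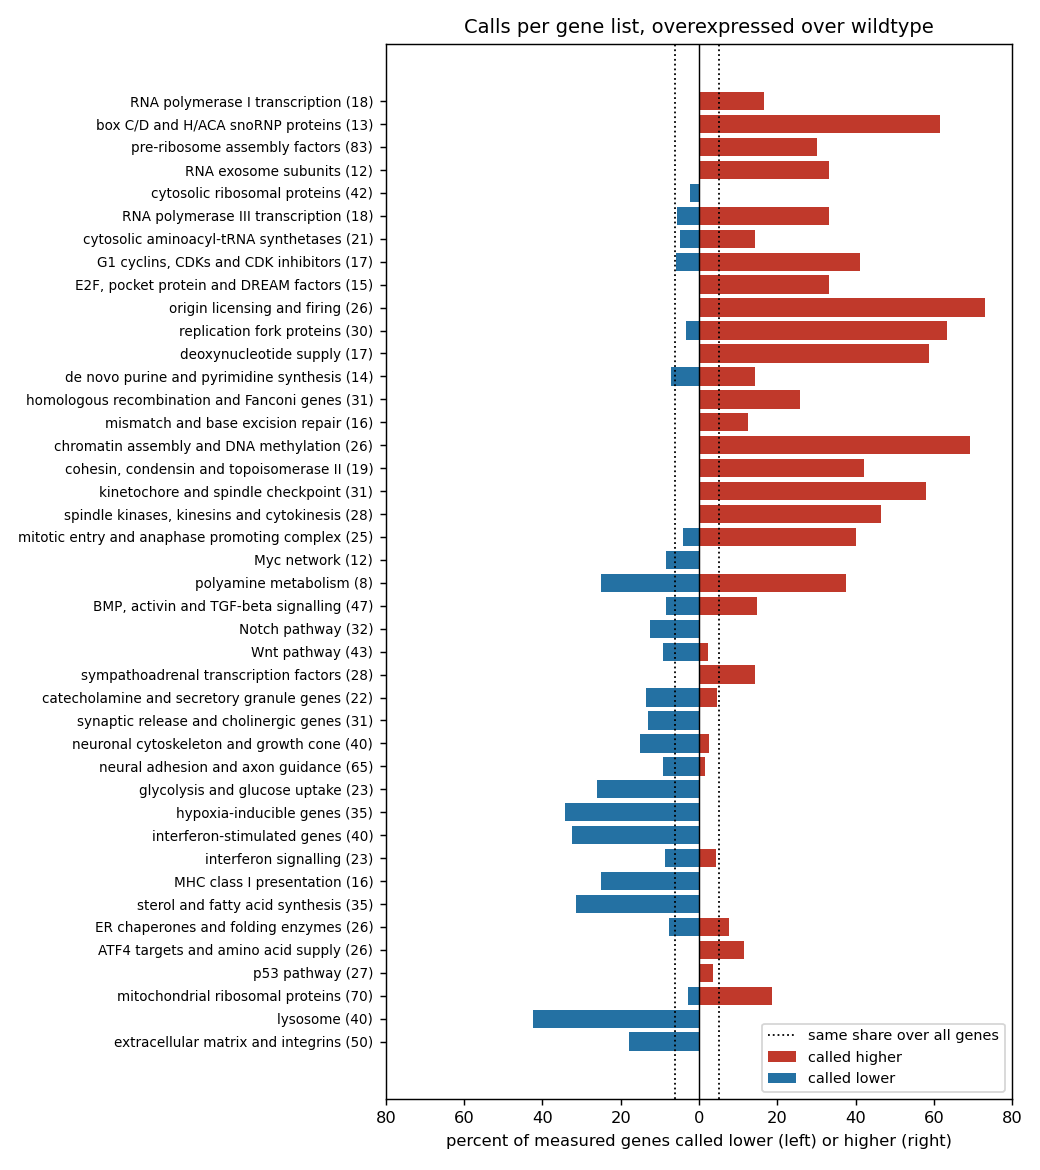
Percent of the measured genes of each list (number in brackets) called higher (red, to the right) or lower (blue, to the left) in overexpressing over wildtype cells; dotted lines mark the same percent over all 12393 genes, 5.04% higher and 6.21% lower. Lists of replication, chromatin, mitosis and snoRNP genes reach far to the right of the line, and lysosome, hypoxia, interferon and sterol lists to the left.

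Of 17 measured G1 cyclins, their kinases and the inhibitors of those, 7 were higher and 1 lower (median 0.22). The number higher was 4, 4 and 5 without overexpressing array A, B or C and 5, 4 and 7 without wildtype array A, B or C. Cyclin E1, the partner of Cdk2 at the start of S phase, read 472.9, 371.0 and 439.5 in the overexpressing and 203.7, 150.9 and 233.6 in the wildtype arrays (log2 fold change 1.08 ± 0.19, adjusted p = 0.00516). Cdk2 read 611.1, 501.3 and 494.7 against 275.2, 271.0 and 274.0 (log2 fold change 0.92 ± 0.13, adjusted p = 0.00196), and its activating phosphatase Cdc25a read 1321, 1189 and 1338 against 740.6, 735.7 and 762.7 (log2 fold change 0.77 ± 0.09, adjusted p = 0.000815). These 3 genes did not overlap between the groups, which held for 27.8% of all probe sets. Cdk4 was called on 2 of its 3 probe sets (0.41 ± 0.08 on the brightest), and the D cyclins were mixed: Ccnd1 was called higher on 2 of its 3 probe sets but not on the brightest (0.35 ± 0.13), and Ccnd2 (0.02 ± 0.20) and Ccnd3 (0.12 ± 0.13) were not called. Among the inhibitors, Cdkn2c was higher (0.58 ± 0.16), Cdkn2a, which gives p16 and p19 Arf, was lower (198.7, 279.5 and 261.6 against 446.9, 496.8 and 386.7, log2 fold change -0.81 ± 0.22, adjusted p = 0.0418), and Cdkn1a and Cdkn1b differed by 0.22 ± 0.08 and -0.02 ± 0.20 without a call. Dropping any 1 of the 6 arrays left the calls of Ccne1, Cdk2, Cdc25a and Cdk4 in place, while fewer of the 6 fits without 1 array held those of Cdkn2c (1 of 6) and Cdkn2a (1 of 6).

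Of 15 measured E2F, pocket protein and DREAM complex genes 5 were higher and 0 lower (median 0.16). Leaving out overexpressing array A, B or C gave 2, 2 and 2 genes higher, and leaving out wildtype array A, B or C gave 2, 2 and 4. Mybl2, the B-Myb factor that E2F switches on and that later drives mitotic genes, read 486.0, 479.6 and 481.2 against 97.9, 136.2 and 205.7 (log2 fold change 1.67 ± 0.22, adjusted p = 0.00143). E2f1, the best known activator, read 846.4, 1042 and 1084 against 339.8, 478.7 and 633.0 (log2 fold change 1.04 ± 0.19, adjusted p = 0.00641). Wildtype array A was the lowest and array C the highest of the wildtype arrays for both, and each had 1 of its 2 probe sets called. The repressor E2f8 (1.09 ± 0.26), the pocket protein Rbl1 (0.71 ± 0.18) and the E2F partner Tfdp1 (0.48 ± 0.14) were called higher, whereas Rb1 (-0.27 ± 0.21), Rbl2 (-0.19 ± 0.23) and E2f4 (0.16 ± 0.13) were not called. Leaving out any 1 array left the calls of Mybl2 and E2f1 in place, while fewer of the 6 fits without 1 array held those of E2f8 (1 of 6), Rbl1 (1 of 6) and Tfdp1 (0 of 6).

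DNA replication genes held some of the largest differences. Among 26 measured genes of origin licensing and firing, the steps that load the Mcm helicase and start it, 19 were higher and 0 lower, with a median of 0.86. Among the 6 fits without 1 array the count of genes higher ran from 13 to 16. Cdc6, which loads the helicase, read 218.1, 395.6 and 343.6 in the overexpressing and 49.7, 29.9 and 93.8 in the wildtype arrays (log2 fold change 2.24 ± 0.34, adjusted p = 0.00289). Mcm5, a subunit of the helicase, read 860.5, 1145 and 868.9 against 150.0, 172.4 and 291.2 (log2 fold change 2.18 ± 0.22, adjusted p = 0.000444). In both genes the lowest overexpressing array lay well above the highest wildtype array, and wildtype array C was the highest of its group. Groups without overlap, in either direction, made up 27.8% of all probe sets. Of the other helicase subunits, Mcm3 (1.61 ± 0.19), Mcm4 (1.54 ± 0.24), Mcm7 (1.0 ± 0.13), Mcm2 (0.82 ± 0.18) and Mcm6 (0.81 ± 0.18) were higher, and 13 of the 15 probe sets for these 5 genes were called. Firing factors included Gins1 at 802.5, 724.5 and 613.6 against 106.9, 208.7 and 263.3 (log2 fold change 1.88 ± 0.25, adjusted p = 0.00164) and Topbp1 at 895.9, 883.0 and 811.4 against 148.9, 265.1 and 524.2 (log2 fold change 1.59 ± 0.32, adjusted p = 0.0118). Dtl, which has the licensing factor Cdt1 destroyed in S phase, differed by 1.95 ± 0.24, and Cdt1 and its inhibitor Gmnn differed by 0.55 ± 0.13 and 1.15 ± 0.20, all called. The origin recognition genes were less uniform: Orc2 (3 of 3 probe sets) and Orc6 were higher by 0.64 ± 0.15 and 0.91 ± 0.20, while Orc3, Orc4 and Orc5 differed by -0.13 ± 0.10, 0.17 ± 0.09 and 0.08 ± 0.11 without a call. Removal of any single array left the calls of Cdc6, Mcm5, Mcm3, Mcm4, Mcm7, Gins1, Topbp1, Dtl and Gmnn in place, while fewer of the 6 fits without 1 array held those of Mcm2 (3 of 6), Mcm6 (3 of 6), Cdt1 (2 of 6), Orc2 (0 of 6) and Orc6 (2 of 6).

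The E2F site was searched as the 8 letters TTTCGCGC, TTTGGCGC, TTTCCCGC or TTTGCCGC on both strands. It lay in the promoter window of 11 of 20 licensing genes (55.0%), of which 8 were among the 15 called genes with a window, and in 8 of 26 fork genes (30.8%), 6 of them among the 18 called. Over all genes with a window the share was 4.07%. The stretches of 5 called licensing genes are shown because their transcripts were among the most raised of the list or, in Mcm6, part of the same helicase. The matched letters are in capitals, and in Mcm5 both strands match in 1 overlapping run:
Mcm5, chr8:75109342-75109381, plus strand: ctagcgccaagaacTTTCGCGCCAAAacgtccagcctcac
Mcm6, chr1:128359731-128359766, minus strand: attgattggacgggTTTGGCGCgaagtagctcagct
Cdc6, chr11:98907999-98908034, plus strand: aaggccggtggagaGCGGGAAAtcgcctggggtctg
Dtl, chr1:191575545-191575566, minus strand: aagcgtgacgtcagTTTGGCGC
Topbp1, chr9:103305184-103305219, plus strand: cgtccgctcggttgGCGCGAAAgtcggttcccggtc
Dtl has the letters directly before its start.

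At the replication fork, 19 of 30 measured genes were higher and 1 lower (median 0.98). Genes called higher numbered 13, 14 and 12 when overexpressing array A, B or C was left out and 14, 13 and 23 when wildtype array A, B or C was. Pcna, the sliding clamp, read 7286, 7474 and 7023 in the overexpressing and 2142, 2884 and 3511 in the wildtype arrays (log2 fold change 1.37 ± 0.15, adjusted p = 0.000668). Wildtype array A was lowest and array C highest among the wildtype readings, and the overexpressing arrays lay close together above them. Pclaf, a small protein bound to the clamp, differed by 2.0 ± 0.25. The clamp loader subunits Rfc4 and Rfc5 differed by 1.25 ± 0.24 and 1.19 ± 0.17, whereas Rfc1 (0.19 ± 0.15) and Rfc2 (0.24 ± 0.09) were not called. Rpa2, of the protein that coats single strands, read 710.6, 640.3 and 497.3 against 206.3, 215.3 and 212.4 (log2 fold change 1.46 ± 0.17, adjusted p = 0.00078). Primase and polymerase alpha genes (Prim1 0.81 ± 0.10, Prim2 0.60 ± 0.15, Pola1 1.04 ± 0.25 and Pola2 1.04 ± 0.24) were called. The gene that was lower was Pold4, the smallest subunit of polymerase delta, at 178.5, 231.2 and 243.6 against 398.6, 364.6 and 350.1 (log2 fold change -0.74 ± 0.16, adjusted p = 0.0149). Omitting any 1 array left the calls of Pcna, Pclaf, Rfc4, Rfc5, Rpa2 and Prim1 in place, while fewer of the 6 fits without 1 array held those of Prim2 (1 of 6), Pola1 (1 of 6), Pola2 (2 of 6) and Pold4 (3 of 6).

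Enzymes that supply deoxynucleotides had 10 of 17 measured genes higher and 0 lower (median 0.60). Across the 6 fits without 1 array the count of genes higher ran from 9 to 12. Rrm2, the regulated subunit of ribonucleotide reductase, read 1467, 1734 and 1273 in the overexpressing and 192.8, 288.5 and 534.9 in the wildtype arrays (log2 fold change 2.19 ± 0.29, adjusted p = 0.00157), and all 3 of its probe sets were called. Wildtype array C was the nearest of its group to the overexpressing arrays for Rrm2, but did not reach them. Thymidine kinase (Tk1, log2 fold change 1.24 ± 0.24, adjusted p = 0.00885) and dUTPase (Dut, log2 fold change 0.97 ± 0.16, adjusted p = 0.00449) were higher, as were the folate enzymes Shmt1 (1.34 ± 0.26) and Mthfd2 (0.88 ± 0.14). Thymidylate synthase, Tyms, differed by -0.41 ± 0.32 and was not called (adjusted p = 0.538). None of the 16 genes with a promoter window held the E2F letters there. De novo purine and pyrimidine synthesis had 2 of 14 higher, Cad (0.76 ± 0.15), the first enzyme of pyrimidine synthesis, and Gart (0.43 ± 0.11), and 1 lower, Ctps2 (-0.76 ± 0.14). The shares over all genes were 5.04% higher and 6.21% lower. Taking out any 1 array left the calls of Rrm2, Tk1, Dut, Shmt1, Mthfd2, Cad and Ctps2 in place, while fewer of the 6 fits without 1 array held those of Gart (1 of 6).

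Of 31 measured homologous recombination and Fanconi genes, 8 were higher and 0 lower (median 0.37). The number higher was 5, 6 and 5 without overexpressing array A, B or C and 5, 6 and 12 without wildtype array A, B or C. Brca1 read 298.7, 312.5 and 310.9 against 41.7, 72.9 and 121.2 (log2 fold change 1.86 ± 0.28, adjusted p = 0.00266), and Usp1, which removes ubiquitin from Fancd2, differed by 1.15 ± 0.16 with 3 of 3 probe sets called. Chek1 differed by 1.01 ± 0.32 on its brightest probe set, which was not called, and 1 of its 4 probe sets was called higher. Of 16 mismatch and base excision repair genes, 2 were higher, Apex1 (0.69 ± 0.13) and Msh6 (0.57 ± 0.11), against 5.04% of all genes. Fignl1, an ATPase of recombination repair, read 1222, 1108 and 1119.6 against 190.4, 348.9 and 509.2 (log2 fold change 1.77 ± 0.29, adjusted p = 0.00398), and Trip13, an ATPase of meiotic recombination and the spindle checkpoint, read 1586, 2255 and 1454 against 244.4, 350.4 and 665.5 (log2 fold change 2.12 ± 0.29, adjusted p = 0.00183). Dropping any 1 of the 6 arrays left the calls of Brca1, Usp1, Apex1, Msh6, Fignl1 and Trip13 in place.

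Chromatin assembly and DNA methylation genes had 18 of 26 measured members higher and 0 lower (median 0.68). Leaving out overexpressing array A, B or C gave 10, 11 and 10 genes higher, and leaving out wildtype array A, B or C gave 10, 10 and 17. Uhrf1, which brings the methyltransferase to newly copied DNA, read 1284, 1366 and 815.1 in the overexpressing and 346.1, 359.6 and 474.8 in the wildtype arrays (log2 fold change 1.49 ± 0.19, adjusted p = 0.00141). Overexpressing array C was the lowest of its group and still above every wildtype array. Dnmt1 itself differed by 0.62 ± 0.13 and Dnmt3b by 0.92 ± 0.21, both called, and Dnmt3a by 0.02 ± 0.18 without a call on its brightest probe set, with 1 of its 5 probe sets called lower. Hells, a remodeller needed for methylation, differed by 1.35 ± 0.21. The histone chaperones Nasp (1.5 ± 0.23) and Asf1b (1.20 ± 0.22) and the histone acetyltransferase Hat1 (0.97 ± 0.17) were higher. Of the Polycomb genes Ezh2 was called (0.84 ± 0.17) and Eed (0.22 ± 0.15) and Suz12 (0.42 ± 0.15) were not. Of 19 cohesin, condensin and topoisomerase II genes, 8 were higher and 0 lower, among them Top2a (1.05 ± 0.17), Ncapg (1.08 ± 0.20) and the cohesin protector Cdca5 (0.97 ± 0.16). Leaving out any 1 array left the calls of Uhrf1, Hells, Nasp, Asf1b, Hat1, Top2a, Ncapg and Cdca5 in place, while fewer of the 6 fits without 1 array held those of Dnmt1 (5 of 6), Dnmt3b (4 of 6) and Ezh2 (5 of 6).

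For mitotic genes the wildtype arrays differed among themselves. Of 31 measured kinetochore and spindle checkpoint genes 18 were higher and 0 lower (median 0.87). That number higher became 12, 11 and 17 without overexpressing array A, B or C, and 11, 11 and 20 without wildtype array A, B or C. Of 28 spindle kinases, kinesins and cytokinesis genes 13 were higher and 0 lower (median 0.83). Genes called higher numbered 10, 7 and 10 when overexpressing array A, B or C was left out and 9, 7 and 19 when wildtype array A, B or C was. The median of the kinetochore genes, relative to their wildtype mean, was 0.96, 0.98 and 0.77 in the overexpressing arrays and -0.36, 0.13 and 0.22 in the wildtype arrays. The knockdown arrays lay between, at 0.53, 0.39 and 0.33. Cenpn, a kinetochore protein, read 1437, 1450.4 and 1252 against 392.6, 512.2 and 504.3 (log2 fold change 1.53 ± 0.13, adjusted p = 0.000206). Sgo1, the guardian of sister chromatid cohesion, read 727.5, 715.2 and 590.4 against 125.0, 232.6 and 208.9 (log2 fold change 1.80 ± 0.22, adjusted p = 0.0011). The Aurora kinases Aurka and Aurkb differed by 1.08 ± 0.14 and 0.85 ± 0.15, and the cytokinesis scaffold Anln by 1.32 ± 0.19. The checkpoint kinase gene Ttk differed by 0.78 ± 0.23, and Ndc80 by 0.62 ± 0.25, without a call. Removal of any single array left the calls of Cenpn, Sgo1, Aurka, Aurkb and Anln in place.

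Of 25 measured genes of mitotic entry and the anaphase promoting complex, 10 were higher and 1 lower (median 0.34). With overexpressing array A, B or C left out 5, 5 and 5 were higher, and with wildtype array A, B or C left out 7, 6 and 10. Cdk1, the kinase of mitotic entry, read 3491, 3493 and 3141 in the overexpressing and 1206, 1554 and 2012 in the wildtype arrays (log2 fold change 1.11 ± 0.15, adjusted p = 0.00166), with wildtype array A the lowest. Ccnf, cyclin F, read 706.0, 609.2 and 745.5 against 161.2, 303.1 and 246.9 (log2 fold change 1.51 ± 0.26, adjusted p = 0.00568). Ube2c, the ubiquitin carrier of the complex, and its activator Cdc20 differed by 0.92 ± 0.13 and 0.68 ± 0.15. The gene that was lower was Fzr1, the activator that keeps the complex on in G1 (-0.39 ± 0.10). Cyclin B2, Ccnb2, differed by 0.01 ± 0.14 and was not called. Omitting any 1 array left the calls of Cdk1, Ccnf and Ube2c in place, while fewer of the 6 fits without 1 array held those of Cdc20 (4 of 6) and Fzr1 (1 of 6).

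The CHR element, through which MuvB complexes hold mitotic genes off and then on, was searched as TTTGAA on both strands. It lay in the window of 18 of 26 spindle and cytokinesis genes (69.2%), 10 of 28 kinetochore genes (35.7%) and 7 of 21 mitotic entry genes (33.3%), against 15.4% of all genes with a window. Among called genes it was found in 6 of 11, 4 of 15 and 5 of 9. The CCAAT box, searched as CCAAT on both strands, lay in 17 of 26 spindle genes (65.4%) and 12 of 21 mitotic entry genes (57.1%), against 42.3% of all. Among called genes it was found in 4 of 11 and 8 of 9. The stretches of 4 called mitotic entry genes show the CHR letters close to the start:
Cdk1, chr10:69352913-69352941, minus strand: tttaccgcggcgagTTTGAAactgctggc
Cdc20, chr4:118437344-118437375, minus strand: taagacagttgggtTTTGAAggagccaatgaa
Ube2c, chr2:164769886-164769919, plus strand: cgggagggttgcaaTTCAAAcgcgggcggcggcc
Ccnf, chr17:24251410-24251437, minus strand: gagctcccggcgcgTTTGAAaacggggc

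**Figure D4:**
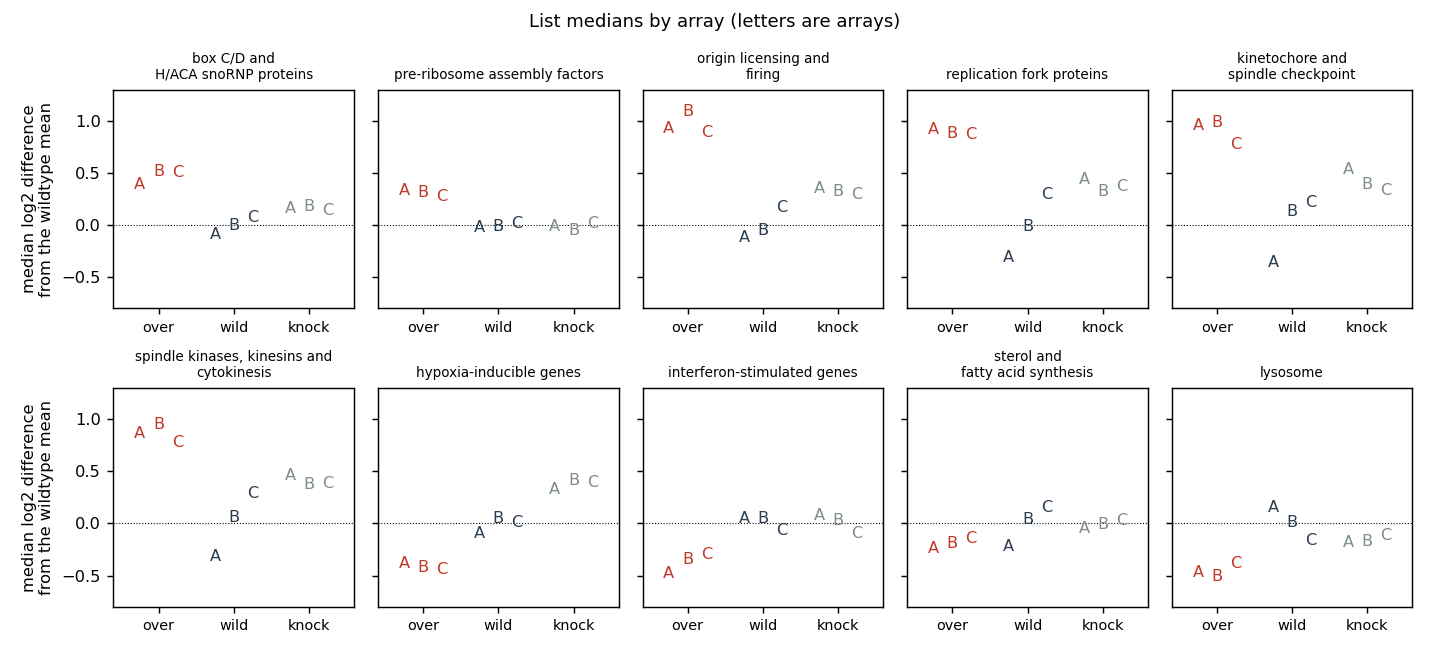
For 10 gene lists, the median over members of each array's log2 difference from the wildtype mean (y axis, the same scale in each panel) by group (x axis); each letter is 1 array. The overexpressing letters lie above every wildtype letter in the 6 nucleolar, replication and mitosis panels and below them in the hypoxia, interferon and lysosome panels; in the sterol panel they overlap wildtype array A.

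Of 12 measured genes of the Myc network, 0 were called higher. Myc and Mycn, the growth-promoting factors, differed by 0.04 ± 0.10 and -0.24 ± 0.11 without a call on the brightest probe set, and 1 of the 3 Mycn probe sets was called lower (log2 fold change -0.68 ± 0.18, adjusted p = 0.0432). Mxd4, which competes with Myc for Max, was lower at 105.5, 124.9 and 156.9 against 415.7, 394.2 and 252.6 (log2 fold change -1.34 ± 0.22, adjusted p = 0.00398). Ornithine decarboxylase and spermidine synthase, enzymes of polyamine synthesis, were higher (Odc1 0.53 ± 0.13 and Srm 0.56 ± 0.10). Sat1, the enzyme that sends polyamines to breakdown and export, was lower at 399.8, 378.3 and 434.0 against 1829, 1193 and 736.6 (log2 fold change -1.5 ± 0.26, adjusted p = 0.00516). The Sat1 groups did not overlap, the highest overexpressing reading lying below the lowest wildtype reading. Groups without overlap, in either direction, made up 27.8% of all probe sets. Taking out any 1 array left the calls of Mxd4, Srm and Sat1 in place, while fewer of the 6 fits without 1 array held those of Odc1 (2 of 6).

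In BMP, activin and TGF-beta signalling, 7 of 47 measured genes were higher and 4 lower around a median of 0.01. The shares over all genes were 5.04% higher and 6.21% lower. Leaving out overexpressing array A, B or C gave 6, 5 and 6 higher and 2, 3 and 4 lower genes, and leaving out wildtype array A, B or C gave 5, 4 and 6 higher and 3, 2 and 4 lower genes. Among ligands, Bmp7 was lower on all 3 of its probe sets and read 297.4, 353.2 and 437.4 in the overexpressing and 1439, 789.6 and 574.2 in the wildtype arrays (log2 fold change -1.24 ± 0.29, adjusted p = 0.0214), with a wide spread in wildtype, where array C was the lowest. Inhba, the activin A subunit, read 27.3, 55.4 and 28.4 against 81.1, 127.9 and 94.9 (log2 fold change -1.17 ± 0.32, adjusted p = 0.0442). Among extracellular binding proteins, follistatin, which traps activin and BMPs, was higher at 932.2, 1202 and 889.7 against 172.5, 203.3 and 197.8 (log2 fold change 2.30 ± 0.15, adjusted p = 4.61e-05). Its distant relative Fstl1 and the latent TGF-beta binding protein Ltbp3 were lower (-1.17 ± 0.15 and -1.16 ± 0.17). At the membrane, the receptor Acvr1 (0.68 ± 0.17) and the pseudoreceptor Bambi (1.61 ± 0.33) were higher. The receptor Bmpr1a was called higher on 3 of its 5 probe sets but not on the brightest (0.17 ± 0.18). Of the usual targets, Id1 read 3168, 3536 and 3075 against 1628, 1438 and 1629 (log2 fold change 1.05 ± 0.09, adjusted p = 0.000206), Id3 read 1125, 964.7 and 755.1 against 307.3, 287.0 and 287.9 (log2 fold change 1.62 ± 0.17, adjusted p = 0.000483), and Id2 (1.39 ± 0.28 on the brightest of 3 probe sets, 2 of them called) and the inhibitory Smad7 (0.74 ± 0.17) were also higher. Id proteins are helix-loop-helix proteins that hold back differentiation factors. Dropping any 1 of the 6 arrays left the calls of Fst, Fstl1, Ltbp3, Bambi, Id1 and Id3 in place, while fewer of the 6 fits without 1 array held those of Bmp7 (3 of 6), Inhba (1 of 6), Acvr1 (0 of 6), Id2 (4 of 6) and Smad7 (3 of 6).

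Of 32 measured Notch pathway genes 0 were higher and 4 lower (median -0.14), with 2 to 3 lower in each fit without 1 array. Dlk1, a membrane ligand-like protein of immature adrenal and neuroblastoma cells, read 62.2, 93.9 and 108.1 in the overexpressing and 1192, 1111 and 1134 in the wildtype arrays (log2 fold change -3.51 ± 0.16, adjusted p = 6.04e-06). The 3 wildtype and 3 knockdown readings (1071, 1099.8 and 1216) were close together, and the overexpressing readings were all low. Notch2 was lower (-1.01 ± 0.20), as were Ncstn (-0.54 ± 0.13) and Dtx1 (-0.51 ± 0.14). Notch1 (-0.57 ± 0.37), Jag1 on its brightest probe set (-0.72 ± 0.30, the other of its 2 being called lower) and the targets Hes5 (-0.40 ± 0.30) and Hey1 (-0.29 ± 0.14) were not called. Of 43 Wnt pathway genes 1 was higher and 4 lower, where 5.04% of all genes were called higher and 6.21% lower. The receptor Fzd7 (-1.77 ± 0.30, 1 of 2 probe sets), the secreted Dkk3 (1214, 965.2 and 1248 against 2897, 2359 and 2234, log2 fold change -1.12 ± 0.12, adjusted p = 0.000669), Dvl1 (-1.07 ± 0.12) and Wnt11 (-0.75 ± 0.11) were lower, and the coreceptor Ryk higher (0.59 ± 0.13). Leaving out any 1 array left the calls of Dlk1, Notch2, Fzd7, Dkk3, Dvl1 and Wnt11 in place, while fewer of the 6 fits without 1 array held those of Ncstn (1 of 6), Dtx1 (1 of 6) and Ryk (3 of 6).

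Genes of the neuronal state moved in both directions. The sympathoadrenal transcription factors had 4 of 28 measured genes higher and 0 lower (median -0.05), where 5.04% of all genes were called higher and 6.21% lower. Isl1, a homeodomain factor of sympathetic neurons, read 1851, 1940.5 and 1753 in the overexpressing and 632.0, 910.3 and 1359 in the wildtype arrays (log2 fold change 0.99 ± 0.21, adjusted p = 0.0137), with the highest wildtype array near the lowest overexpressing one. Dlx1 (2.12 ± 0.23), Insm1 (0.83 ± 0.22) and Sox4 (0.47 ± 0.11, 1 of 6 probe sets) were the others. Phox2a (-0.29 ± 0.14), Hand2 (0.19 ± 0.16) and Gata3 (0.97 ± 0.29) were not called. Of 22 catecholamine and secretory granule genes, Dbh, which makes noradrenaline, was higher (2499, 2229.7 and 2229 against 1266, 1649.9 and 1679, log2 fold change 0.60 ± 0.11, adjusted p = 0.00769). Chga, the granule protein chromogranin A, was lower (1861, 2144 and 1909 against 2773, 3552 and 3745, log2 fold change -0.75 ± 0.12, adjusted p = 0.00309), and so were Qdpr (-0.82 ± 0.09) and Scg3 (-0.39 ± 0.08). Tyrosine hydroxylase, Th, differed by -0.36 ± 0.11 and was not called (adjusted p = 0.0605). Removal of any single array left the calls of Dlx1, Dbh, Chga and Qdpr in place, while fewer of the 6 fits without 1 array held those of Isl1 (4 of 6), Insm1 (1 of 6), Sox4 (2 of 6) and Scg3 (4 of 6).

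On their brightest probe sets, synaptic and neurite genes were lower where called, with 1 exception in each of the neurite and guidance lists. Over all genes 6.21% were called lower and 5.04% higher. Of 31 synaptic release and cholinergic genes 0 were higher and 4 lower (median -0.14), led by acetylcholinesterase. Ache read 317.6, 230.8 and 278.1 in the overexpressing and 655.9, 817.8 and 785.2 in the wildtype arrays (log2 fold change -1.40 ± 0.14, adjusted p = 0.000435). The vesicle proteins Rab3a (-0.78 ± 0.15), Syn2 (-0.62 ± 0.14) and Syp (-0.50 ± 0.11) were lower, and Snap25 (-0.23 ± 0.12) and Syt1 (-0.31 ± 0.13) were not called. Of 40 neuronal cytoskeleton and growth cone genes, 6 were lower and 1 higher (median -0.11). The number lower was 3, 3 and 3 without overexpressing array A, B or C and 4, 3 and 6 without wildtype array A, B or C. Eno2, the neuronal enolase, read 577.6, 488.2 and 584.1 against 2492, 1936 and 1673 (log2 fold change -1.84 ± 0.15, adjusted p = 0.000206). Rtn1, a reticulon of neuroendocrine cells, differed by -2.18 ± 0.34 and Dpysl5 by -1.10 ± 0.21. The RNA-binding Elavl2 was the exception (0.68 ± 0.14, 3 of 5 probe sets). Kif5c was called higher on 1 of its 2 probe sets but not on the brightest (0.07 ± 0.16). Mapt on its brightest probe set (-0.73 ± 0.22, 1 of 3 being called lower), Dcx (-0.81 ± 0.36) and Gap43 (-0.23 ± 0.10) were not called. Omitting any 1 array left the calls of Ache, Rab3a, Eno2, Rtn1 and Dpysl5 in place, while fewer of the 6 fits without 1 array held those of Syn2 (2 of 6), Syp (2 of 6) and Elavl2 (4 of 6).

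Of 65 neural adhesion and axon guidance genes, 6 were lower and 1 higher around a median of 0.02, against 6.21% and 5.04% of all genes. In the 6 fits without 1 array the count of genes lower ran from 4 to 6. Adam23, a catalytically inactive adhesion protein of neurons, read 26.3, 37.7 and 39 against 252.2, 347.6 and 280.2 (log2 fold change -2.62 ± 0.22, adjusted p = 0.000206). Nrcam, a neurite adhesion molecule, read 531.2, 685.4 and 527.9 against 1322, 1178 and 1103 (log2 fold change -1.03 ± 0.12, adjusted p = 0.000806). In both genes the overexpressing arrays lay below each wildtype array, and 27.8% of all probe sets had groups without overlap in either direction. Sema4d (-0.77 ± 0.10, 2 of 3 probe sets), Plxnb2 (-0.71 ± 0.17), Cntnap2 (-0.74 ± 0.14, 1 of 3 probe sets) and L1cam (-0.44 ± 0.12, 1 of 2 probe sets) were lower. The semaphorin receptor Nrp1 was higher (1.37 ± 0.32, 2 of 3 probe sets). Taking out any 1 array left the calls of Adam23, Nrcam, Sema4d and Cntnap2 in place, while fewer of the 6 fits without 1 array held those of Plxnb2 (2 of 6), L1cam (0 of 6) and Nrp1 (3 of 6).

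Of 35 measured hypoxia-inducible genes, which low oxygen switches on, 12 were lower and 0 higher, against 6.21% of all genes called lower, with a median of -0.35. Across the 6 fits without 1 array the count of genes lower ran from 8 to 12. Egln3, an oxygen-sensing prolyl hydroxylase that is itself a HIF target, read 498.9, 459.6 and 490.7 in the overexpressing and 1047, 921.0 and 946.3 in the wildtype arrays (log2 fold change -0.98 ± 0.10, adjusted p = 0.000499). P4ha2, a collagen prolyl hydroxylase, read 1202, 1220.1 and 1261 against 2006, 2366 and 2223 (log2 fold change -0.83 ± 0.08, adjusted p = 0.000444), and the repressor Bhlhe40 read 179.5, 157.7 and 125.8 against 720.3, 773.6 and 552.0 (log2 fold change -2.03 ± 0.16, adjusted p = 0.000165). The groups were apart for each of these genes, as they were, in either direction, at 27.8% of all probe sets. Bnip3, of mitochondrial clearance (-1.64 ± 0.25), and Ndrg1 (-1.02 ± 0.15, 4 of 5 probe sets) were also lower, and Vegfa (-0.48 ± 0.15) and Ddit4 (-0.37 ± 0.11) were not called. The knockdown arrays stood on the other side of wildtype: the list's median relative to the wildtype mean was -0.38, -0.42 and -0.44 in the overexpressing arrays and 0.33, 0.41 and 0.39 in the knockdown arrays, both being read against the same wildtype arrays. On the brightest Tcof1 probe set the knockdown arrays differed from wildtype by 0.06 ± 0.17, without a call. Dropping any 1 of the 6 arrays left the calls of Egln3, P4ha2, Bhlhe40, Bnip3 and Ndrg1 in place.

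Of 23 glycolysis and glucose uptake genes, 6 were lower and 0 higher (median -0.32). Over the 6 fits without 1 array the count of genes lower ran from 6 to 8. Aldoc, the brain aldolase, read 219.7, 233.2 and 340.0 in the overexpressing and 1461, 1715 and 1394 in the wildtype arrays (log2 fold change -2.48 ± 0.15, adjusted p = 3.4e-05). Aldoa, the general aldolase, was lower on all 4 of its probe sets (-0.66 ± 0.10 on the brightest), as was Slc2a3, the neuronal glucose transporter, on all 4 of its own (6402, 5702 and 7162 against 10724, 10181 and 9922, log2 fold change -0.68 ± 0.09, adjusted p = 0.00184). Pgk1 on its brightest probe set (-0.33 ± 0.14, 2 of 3 being called lower), Pkm (-0.08 ± 0.10) and Slc2a1 (-0.41 ± 0.14) were not called. The HIF core letters ACGTG, searched on both strands and overlapping the E-box, lay in the window of 20 of 30 hypoxia-inducible genes (66.7%) and 16 of 22 glycolysis genes (72.7%), against 26.9% of all genes. Among called genes it was found in 7 of 10 and 4 of 5. The stretches of 3 called hypoxia-inducible genes are shown with the letters in capitals, Bnip3 holding them on both strands in 1 palindrome:
P4ha2, chr11:54100832-54100864, plus strand: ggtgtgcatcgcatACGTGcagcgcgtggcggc
Egln3, chr12:54204085-54204117, minus strand: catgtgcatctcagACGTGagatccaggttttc
Bnip3, chr7:138909595-138909628, minus strand: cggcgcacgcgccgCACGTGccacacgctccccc
Leaving out any 1 array left the calls of Aldoc, Aldoa and Slc2a3 in place.

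Of 40 measured interferon-stimulated genes, many of which protect cells from viruses, 13 were lower and 0 higher (median -0.33). Among the 6 fits without 1 array the count of genes lower ran from 9 to 13. Rsad2, the antiviral enzyme viperin, was lower on all 3 probe sets and read 134.5, 180.2 and 205.7 in the overexpressing and 1396, 1110.2 and 763.0 in the wildtype arrays (log2 fold change -2.52 ± 0.23, adjusted p = 0.000265). Wildtype array C was the lowest of its group, and each overexpressing array was far below it. Ifit1, which binds foreign RNA ends, read 110.5, 116.5 and 112.5 against 524.6, 484.8 and 395.5 (log2 fold change -1.90 ± 0.17, adjusted p = 0.000265). Isg20, an RNA exonuclease, read 223.5, 258.1 and 252.7 against 513.6, 611.6 and 539.8 (log2 fold change -1.13 ± 0.13, adjusted p = 0.000786). The RNA sensor Ifih1 (-1.69 ± 0.38), the synthetases Oas1a (-0.81 ± 0.11) and Oasl2 (-1.42 ± 0.25), and Ifitm3 (-1.02 ± 0.11) were lower, and the chemokines Cxcl10 (0.57 ± 0.48) and Ccl5 (0.69 ± 0.44) were not called. The signalling genes of the pathway had 1 of 23 higher and 2 lower, where 5.04% of all genes were called higher and 6.21% lower. Stat2 was lower (-0.72 ± 0.15), Irf7 (-0.39 ± 0.27) and Irf9 (-0.19 ± 0.22) were not called, and Socs2, a brake on cytokine receptors, was higher (1.22 ± 0.14). Rsad2 and Ifit1 read 513.8, 530.7 and 381.7 and 274.9, 256.1 and 203.0 in the knockdown arrays, below the wildtype arrays as well. This did not hold for every gene called: in the knockdown arrays Isg20 read 593.1, 752.7 and 684.6, Oas1a read 585.9, 569.8 and 528.5 and Ifitm3 read 1558, 1516 and 1550.4, none of them below the wildtype range. Removal of any single array left the calls of Rsad2, Ifit1, Isg20, Oas1a, Oasl2, Ifitm3 and Socs2 in place, while fewer of the 6 fits without 1 array held those of Ifih1 (3 of 6) and Stat2 (5 of 6).

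The interferon response element, searched as GAAANNGAA on both strands, lay in the window of 20 of 28 interferon-stimulated genes (71.4%) and 7 of the 12 called ones, against 8.63% of all genes. The stretches of 3 called genes are printed with the matches in capitals. Ifit1 holds a run of overlapping matches and a separate one:
Ifit1, chr19:34640766-34640827, plus strand: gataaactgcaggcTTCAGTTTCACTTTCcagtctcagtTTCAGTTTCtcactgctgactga
Rsad2, chr12:26456549-26456585, minus strand: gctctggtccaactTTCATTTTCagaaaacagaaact
Oas1a, chr5:120907526-120907559, minus strand: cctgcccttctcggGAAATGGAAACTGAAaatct

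MHC class I presentation had 4 of 16 measured genes lower and 0 higher (median -0.11), and from 1 to 4 were lower in each fit without 1 array. Tapbp, tapasin, which loads peptides onto class I molecules, read 445.0, 422.3 and 455.2 against 1047, 1022 and 811.9 (log2 fold change -1.09 ± 0.12, adjusted p = 0.000668), with both of its probe sets called. H2-K1 and H2-D1 were lower on their brightest probe sets (-0.65 ± 0.18 and -0.60 ± 0.16), with 1 of 4 and 5 of 9 probe sets called lower. Near-identical class I genes can share their signal. B2m differed by 0.26 ± 0.12 and Tap1 by 0.04 ± 0.23 without a call. Omitting any 1 array left the calls of Tapbp in place, while fewer of the 6 fits without 1 array held those of H2-K1 (1 of 6) and H2-D1 (2 of 6).

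Of 35 measured sterol and fatty acid synthesis genes 11 were lower and 0 higher (median -0.21). The number lower was 7, 7 and 11 without overexpressing array A, B or C and 11, 6 and 8 without wildtype array A, B or C. The list's median lay at -0.24, -0.19 and -0.14 in the overexpressing arrays and at -0.22, 0.04 and 0.15 in the wildtype arrays, so wildtype array A lay inside the overexpressing range. Acss2, which makes acetyl-CoA from acetate, read 554.0, 655.2 and 657.1 in the overexpressing and 1452, 1524 and 1457 in the wildtype arrays (log2 fold change -1.23 ± 0.11, adjusted p = 0.000276). Pmvk, of the mevalonate steps, read 366.0, 299.2 and 482.3 against 835.2, 887.1 and 925.7 (log2 fold change -1.20 ± 0.15, adjusted p = 0.00123). Fdps (-0.98 ± 0.17), Tm7sf2 (-1.01 ± 0.11), Insig2 (-0.77 ± 0.15, 3 of 3 probe sets) and the regulator Srebf1 (-0.66 ± 0.12) were lower. The list was not uniform: Idi1 (0.83 ± 0.31) and Mvk (0.79 ± 0.44) lay on the higher side and were not called, and Hmgcs1 differed by -0.12 ± 0.17. The sterol element TCACNCCAC, searched on both strands, lay in the window of 1 of 28 list genes (3.57%) and in 0 of the 9 called ones, against 1.5% of all genes. Taking out any 1 array left the calls of Acss2, Pmvk, Fdps, Tm7sf2, Insig2 and Srebf1 in place.

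Lysosomal genes had the highest share of lower calls among the 47 lists. Of 40 measured genes 17 were lower (42.5%) and 0 higher, the median was -0.46, and 5 of the 40 lay above 0. Leaving out overexpressing array A, B or C gave 10, 8 and 14 genes lower, and leaving out wildtype array A, B or C gave 11, 6 and 20. Without a mean-variance trend in the fit 6 were called. The list's median relative to the wildtype mean was -0.47, -0.51 and -0.38 in the overexpressing arrays, 0.15, 0.01 and -0.16 in the wildtype arrays and -0.18, -0.17 and -0.12 in the knockdown arrays. Scarb2, a membrane protein that carries glucocerebrosidase to the lysosome, read 1451, 1534 and 1558 in the overexpressing and 2413, 2347 and 2389 in the wildtype arrays (log2 fold change -0.65 ± 0.07, adjusted p = 0.000813). Psap, the precursor of the saposins that help to degrade sphingolipids, read 3160.4, 4514 and 4665 against 6781, 6728 and 6188 (log2 fold change -0.69 ± 0.14, adjusted p = 0.0106). Both were lower on 2 of 2 probe sets, and the groups did not overlap, which held for 27.8% of all probe sets. Atp6v1a, of the proton pump, read 1114, 1122 and 1232 against 2074, 1872 and 1658 (log2 fold change -0.68 ± 0.11, adjusted p = 0.00388). Its pump partners Atp6v1b2 (-0.61 ± 0.13, 1 of 3 probe sets) and Atp6v0d1 (-0.40 ± 0.11) were also lower. Among the hydrolases, Ctsd (-0.82 ± 0.18), Neu1 (-0.76 ± 0.16, 1 of 3 probe sets) and Tpp1 (-0.54 ± 0.11) were lower. So were the cholesterol carrier Npc2 (-0.54 ± 0.11, 1 of 2 probe sets) and Grn (-0.52 ± 0.11, 2 of 3 probe sets). Ctsb (-0.54 ± 0.17), Lamp2 (-0.52 ± 0.22) and Npc1 (-0.47 ± 0.20) were not called, and Tfeb, a factor that drives such genes, differed by 0.12 ± 0.30. Dropping any 1 of the 6 arrays left the calls of Scarb2, Psap, Atp6v1a, Neu1 and Npc2 in place, while fewer of the 6 fits without 1 array held those of Atp6v1b2 (2 of 6), Atp6v0d1 (1 of 6), Ctsd (3 of 6), Tpp1 (4 of 6) and Grn (3 of 6).

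Of 50 extracellular matrix and integrin genes 9 were lower and 0 higher (median -0.13). Over the 6 fits without 1 array the count of genes lower ran from 6 to 8. Sparc, a matrix protein that binds collagen, was lower on both probe sets at 228.1, 275.3 and 473.6 against 894.3, 770.7 and 580.7 (log2 fold change -1.21 ± 0.23, adjusted p = 0.0096). Lama4 (-0.80 ± 0.15), Col18a1 (-0.87 ± 0.19), Fbln2 (-0.91 ± 0.16) and the protease inhibitor Timp2 (-0.74 ± 0.14) were lower, and fibronectin, Fn1, differed by -0.63 ± 0.14, also called. Leaving out any 1 array left the calls of Sparc, Lama4, Fbln2 and Timp2 in place, while fewer of the 6 fits without 1 array held those of Col18a1 (2 of 6) and Fn1 (3 of 6).

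Each of the stress pathway lists held at least 1 call, where 5.04% of all genes were called higher and 6.21% lower. Of 26 endoplasmic reticulum chaperones and folding enzymes 2 were higher and 2 lower: Manf (2840.4, 2823 and 2690.0 against 963.1, 1182 and 1719, log2 fold change 1.14 ± 0.17, adjusted p = 0.00234) and Creld2 (0.73 ± 0.20), secreted proteins of the unfolded protein response, were higher, and Sel1l (-0.76 ± 0.11) and Dnajb9 (-0.48 ± 0.12) lower. Of 26 ATF4 target and amino acid supply genes 3 were higher and 0 lower, namely Mthfd2, Shmt2 and Psat1, while Ddit3 (-0.49 ± 0.20) and Asns (-0.22 ± 0.09) were not called. Of 27 p53 pathway genes 1 was called, Aen, at 0.57 ± 0.12. The p53 targets Cdkn1a and Mdm2 differed by 0.22 ± 0.08 and 0.25 ± 0.17 and the list's median was 0.01. Removal of any single array left the calls of Manf and Sel1l in place, while fewer of the 6 fits without 1 array held those of Creld2 (1 of 6), Dnajb9 (1 of 6) and Aen (4 of 6).

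Some of the largest single differences fell outside these lists. Ephx1, which opens epoxides of drugs and toxins, read 882.6, 766.0 and 837.1 in the overexpressing and 4782, 4017 and 2908 in the wildtype arrays (log2 fold change -2.19 ± 0.16, adjusted p = 9.27e-05). Prnp, the prion protein gene, read 1432, 1330.2 and 1528 against 6014, 5190.5 and 4568 (log2 fold change -1.86 ± 0.11, adjusted p = 1.89e-05). Prom1, a membrane protein used as a stem cell marker, read 121.1, 149.4 and 127.8 against 718.9, 713.2 and 637.1 (log2 fold change -2.25 ± 0.13, adjusted p = 1.89e-05). For each of these genes the 3 overexpressing arrays were well below the 3 wildtype arrays. Genes were named here by fold among calls without overlap, so that separation was set by the choice. The calmodulin regulator Pcp4 (-2.27 ± 0.15), the scavenger receptor Scara5 (-2.13 ± 0.30), the cation exporter Slc47a1 (-2.11 ± 0.28), clusterin (Clu, -1.49 ± 0.21), the lipid carrier Pltp (-1.92 ± 0.17), the kinase Pnck (-1.87 ± 0.18) and Hhatl (-1.89 ± 0.18) were lower too. Several were named because every one of their probe sets, at least 3 each, was called lower. They were Rgs5, a brake on G proteins (-1.48 ± 0.13), Hbp1, a repressor of growth genes (-1.24 ± 0.15), the glutathione transferase Gstm1 (-1.23 ± 0.15) and the catenin Arvcf (-1.13 ± 0.14). On the higher side, the probe sets of the sorting nexin Snx5 disagreed. One ending in _at read 517.8, 519.0 and 429.5 against 128.0, 108.2 and 160.3 (log2 fold change 1.78 ± 0.20, adjusted p = 0.000689), while the brightest differed by 0.16 ± 0.10 and was not called. Also higher were the ubiquitin-like Urm1 of transfer RNA thiolation (0.83 ± 0.14) and Rps27l (0.74 ± 0.11). Omitting any 1 array left the calls of Ephx1, Prnp, Prom1, Pcp4, Scara5, Slc47a1, Clu, Pltp, Pnck, Hhatl, Rgs5, Hbp1, Gstm1, Arvcf, Urm1 and Rps27l in place.

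**Figure D5:**
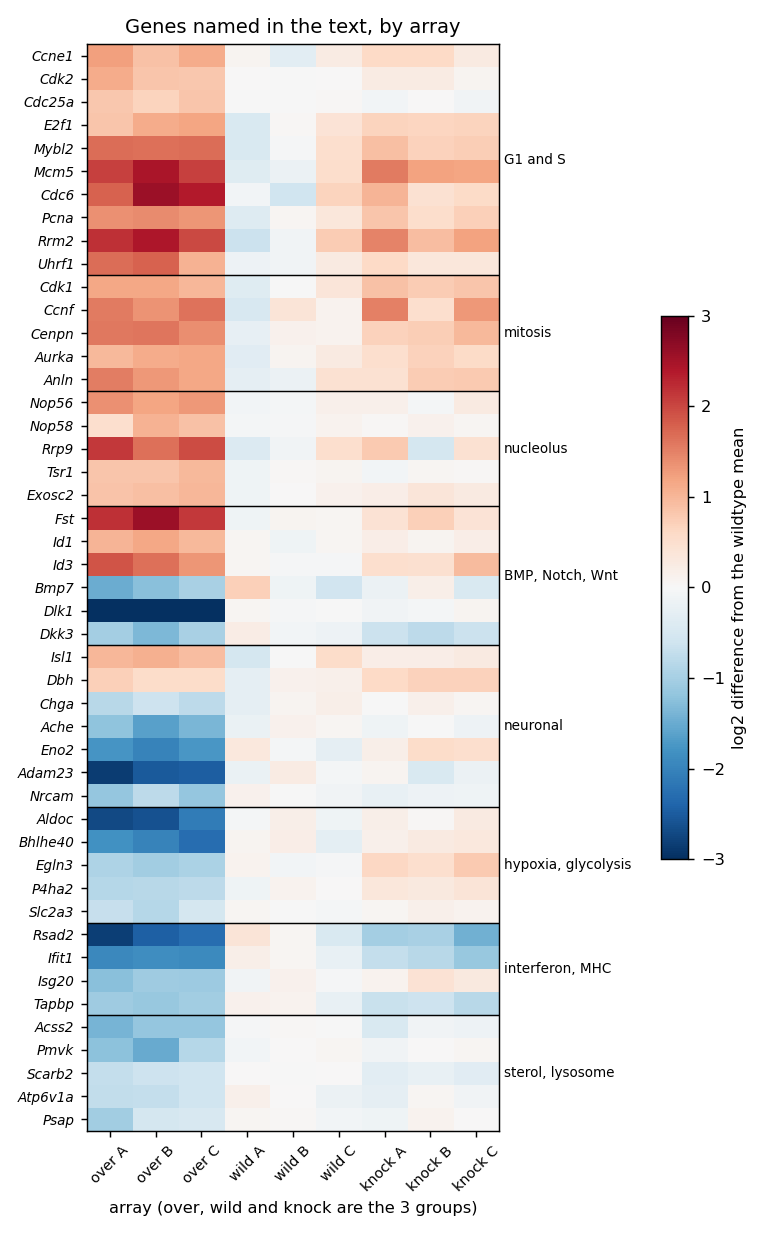
Log2 difference of each array from the wildtype mean (colour; red higher, blue lower, limited at 3 in each direction, which Dlk1 in the overexpressing arrays passes) for genes described in the text (rows, grouped by role) in the overexpressing, wildtype and knockdown arrays (columns). The overexpressing columns stand apart from the wildtype columns in each row, and several replication and mitosis rows are also pale red in the knockdown columns.

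The labelled cell type was checked against markers. Of 20 measured neuroblastoma and sympathetic markers, 3 had a mean intensity under 50, and their summed intensity was 64789 to 72224 in the overexpressing and 77325 to 81537 in the wildtype arrays; 2 were called higher and 5 lower, as described above. Fibroblast markers (16 measured, 7 under 50) summed to 17828 to 18940 and 17793 to 18141, with 2 lower. Vim made up most of that sum, and the other 15 summed to 1159 to 1403 and 1562 to 1849, lower without overlap. Glial markers (15 measured, 7 under 50) summed to 6889 to 8529 and 8116 to 10612, with 1 lower, and without Pmp22 the other 14 summed to 1198 to 1409 and 1654 to 1702. Blood and immune markers (20 measured, 7 under 50) summed to 1681 to 1762 and 2340 to 2565, with 1 lower, Cd74 at -1.28 ± 0.12, and without it to 1296 to 1417 and 1442 to 1612. Endothelial markers (12 measured, 2 under 50) summed to 2083 to 2225 and 1605 to 1872, with 1 higher and 1 lower, and without Ramp2 the other 11 summed to 877 to 962 and 978 to 1048, the other way. Their part in the results above was not tested. In bulk RNA, fewer cells of a kind and less RNA per cell cannot be told apart, which holds also for the share of cells in S phase or mitosis. Taking out any 1 array left the calls of Cd74 in place.

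The wildtype arrays were not equally far from the overexpressing group. Among the 1022 probe sets called higher, wildtype array C was the nearest wildtype array to the overexpressing mean at 744 (72.8%) and wildtype array A the farthest at 671 (65.7%). Among the 1147 called lower, array C was nearest at 753 (65.6%) and array A farthest at 686 (59.8%). Among the 20457 that were not called, array C was nearest at 40.5% and array A farthest at 41%. Array C was thus most often the nearest and array A most often the farthest in all 3 sets, with larger shares in the called ones. The cause of this order was not tested.

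Set beside wildtype, the knockdown arrays gave 3 called probe sets, and this comparison shares its wildtype arrays with the one above. The brightest Tcof1 probe set, ending in _at, read 219.8, 228.9 and 204.9 in the knockdown and 167.8, 232.6 and 232.2 in the wildtype arrays. Its log2 difference was 0.06 ± 0.17 and was not called. Replication and mitosis lists sat above wildtype in the knockdown arrays, with a median log2 difference of 0.40 for fork genes and 0.46 for kinetochore genes, against 0.98 and 0.87 in the overexpressing cells. SnoRNP genes sat at 0.17 against 0.45, and pre-ribosome assembly genes at -0.04 against 0.30. Hypoxia-inducible genes sat at 0.34 against -0.35. Mcm5 read 608.3, 477.8 and 469.3 in the knockdown arrays, Nop56 read 1856, 1597 and 2013 and Egln3 read 1498, 1380.3 and 1683. Of these genes Mcm5 lay above the wildtype arrays, Nop56 lay within or near their range and Egln3 lay above them.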

How the data were processed

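Total RNA of N1E-115 cells was measured on 9 one-colour arrays, 3 overexpressing Tcof1, 3 wildtype and 3 knockdown, per the labels. The authors deposited linear intensity values, 1 per probe set and array; neither software nor background correction was given in the sources used here, and no detection calls were analysed here. Without its lowest and highest 2% each array averaged 499.95, so a common scale had been set before deposit. Precision is limited by the number of arrays.

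Of 22690 probe sets, 64 controls were left out. The platform annotation gave 20380 of the other 22626 exactly 1 gene symbol, 691 several and 1555 none, and only the first were named. Each value became log2(intensity + 16), a scale that compresses changes of dim probe sets. The model, 1 mean per group over all 9 arrays, was fitted with lmFit and eBayes (mean-variance trend on) of limma 3.58.1 under R 4.3.3. In simulated arrays of this comparison 36% of changes of 1.5-fold were recovered, 74% at 2-fold, 92% at 3-fold and 100% at 4-fold. The changes were planted only in probe sets brighter than the median, 50 per fold, with independent normal noise. Recovery at dimmer probe sets and false calls under shifts shared across an array were not simulated. Of the 22626 simulated probe sets 7 were called falsely.

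The members and the 47 gene lists were chosen with earlier results of these data known. Of 1545 list entries 1324 were measured, matched by current symbol. Named by rule were the Tcof1 probe sets, up to 15 genes in each direction by fold among calls that did not overlap and had group means of at least 100, up to 8 in each direction with at least 3 probe sets all called, and up to 5 called genes per list with up to 2 against its majority, or 1 with the smallest p where a list had no call. Other genes named, and the promoter stretches printed, were chosen after their values were seen. Promoters came from RefSeq (GRCm38.p6). Alternatives were other pseudocounts (1 and 64), a brightness filter at the 40th percentile, quantile and median scaling, no trend, array weights, the 6 arrays alone, a limit of 1.5-fold on the estimate, the letter as a block, fewer probe set types, the mean of a gene's probe sets, removal of chromosome medians, and each array left out.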

Additional observations from a re-analysis of the deposited data

How the results depend on the processing

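With all arrays of both groups kept, calls over all probe sets ran from 1339 without a mean-variance trend (602 higher and 737 lower) to 2827 with array quality weights, against 2169 as reported. The limit of 1.5-fold on the estimate left 1511, and the 6 arrays fitted alone gave 1757. Leaving out 1 array gave 1090 to 2404 calls, 497 to 1219 of them higher and 593 to 1185 lower. Among the 249 called genes named by rule, 0 reversed sign under the settings run, and 50 lost their call without the trend, and 13 to 62 with 1 array left out. The Tcof1 probe set ending in _a_at gave 0.67 to 1.02 with 1 array left out. The one ending in _s_at gave 0.49 to 0.77 and passed with array quality weights (0.70) and above the 40th percentile (0.63). The share of calls that were higher was 47.1% as reported, 52.0% with a common median and 42.1% to 50.7% with 1 array left out. With the letter as a replicate block, 2128 were called (1014 higher, 1114 lower), 1916 shared with the reported calls. Same-letter arrays deviated together with r of 0.099, 0.079 and 0.004. For overexpressing arrays A and B the same-letter wildtype array gave the highest r, while overexpressing array C correlated best with wildtype array B (0.018). The labels do not say that letters pair arrays, so the letters were not taken as pairs. Dim probe sets were kept except in the 40th percentile setting.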

Other observations

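Called genes were unevenly spread over the chromosomes, given here as a description with no test. On chromosome 2, 104 of 965 measured genes were higher (10.8%) and 36 lower (3.73%), and on chromosome 17, 55 of 596 were higher (9.23%) and 30 lower (5.03%). On chromosome 12, 10 of 384 were higher (2.6%) and 52 lower (13.5%). Chromosome 3 had 10 of 630 higher and 62 lower, chromosome 15 had 15 of 495 higher and 55 lower, and chromosome X had 6 of 402 higher and 25 lower. Over all genes 5.04% were higher and 6.21% lower.

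The medians of whole chromosomes moved with these counts. Relative to the wildtype mean, the median gene of chromosome 2 lay at 0.06, 0.14 and 0.08 in overexpressing arrays A, B and C and at -0.03, 0.03 and 0.00 in the wildtype arrays. For chromosome 12 the values were -0.18, -0.08 and -0.17 against -0.01, 0.03 and -0.02. For chromosome 15 they were -0.14, -0.10 and -0.08 against -0.01, 0.03 and -0.03. Among genes with a wildtype intensity of at least 100 the median log2 fold change was 0.12 on chromosome 2 (683 genes), -0.19 on chromosome 12 (283 genes) and -0.12 on chromosome 15 (328 genes). With each chromosome's median removed from each array 1931 probe sets were called, 1825 of them shared with the reported calls, and 1 of the 2169 reported calls had the other sign. DNA copy number was not measured on these arrays, and the cause of the chromosome medians was not tested.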
